A study of Mus musculus with 9 samples.

Results

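The transition from In/B spermatogonia to preleptotene (PL) spermatocytes made under a continued block of retinoic acid (RA) synthesis was followed across all genes. In/B cells are intermediate and type B spermatogonia, the last cells to divide by mitosis before meiosis, and PL spermatocytes are in the S phase that precedes meiotic prophase. The comparison was made between 3 libraries of RA-deficient PL spermatocytes and 3 libraries of In/B spermatogonia, which are 6 of the 9 mRNA libraries of the series. All 24505 genes of the count table were members, and 14877 of them had enough counts to be tested. The question addressed was which mRNAs change on entry into meiosis when endogenous RA synthesis is blocked.

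All cells came from Uchl1-eGfp mice, a C57BL/6 line outcrossed to CD-1, whose EGFP reporter, under the Uchl1 promoter, is bright in spermatogonia and dim at the PL stage. Every mouse, those of the In/B group included, was fed bis-(dichloroacetyl)-diamine, an inhibitor of the enzymes that make RA, at 100 µg per g body weight from postnatal day (P) 1, and received 1 injection of 10 µl RA at 10 µg per µl on P11. In/B spermatogonia were sorted at P17 after the inhibitor had been stopped. RA-deficient PL spermatocytes were sorted at P19 from mice in which the inhibitor was continued after the injection, and 3 libraries of RA-sufficient PL spermatocytes came from mice of P19 in which it was stopped. The paper describes independent cell preparations for its sequenced RNA, and does not state how many mice each of these libraries pooled. Age, cell stage, EGFP gate and drug regimen all differ between the In/B and RA-deficient groups, and their parts in a difference cannot be told apart. In these bulk libraries a fall in the number of cells of a type and a fall in their mRNA cannot be told apart either.

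RA is made from vitamin A by retinol and retinal dehydrogenases, binds RAR and RXR receptors, and is broken down by CYP26 enzymes. In the testis it induces Stra8 and Kit as spermatogonia begin to differentiate, and Stra8 again in PL cells. On entry into meiosis, cohesins and the synaptonemal complex form the chromosome axes, SPO11 cuts the DNA at sites chosen by PRDM9, the recombinase DMC1 pairs the broken ends with the homologue, and telomeres are tied to the nuclear envelope.

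Total counts were between 16872425 and 26684393 in the In/B libraries and between 25048240 and 27042274 in the RA-deficient libraries. Values are given as CPM, read counts scaled to a common library size with TMM factors, and 3 counts corresponded to between 0.113 and 0.170 CPM in In/B and between 0.119 and 0.131 CPM in RA-deficient PL libraries. The RA-deficient libraries held fewer genes, with a count for 14769 to 15327 genes against 16758 to 18002 in In/B, although they were sequenced as deeply or deeper. The 100 most abundant genes took between 14.1% and 15.4% of the counts in RA-deficient PL and between 10.4% and 10.7% in In/B. A count in every In/B library and in no RA-deficient library was found for 609 genes, and the reverse for 12 genes, and what these absences come from was not tested.

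RA-deficient replicate 3 stood apart from replicates 1 and 2. Across genes, log2 CPM of replicates 1 and 2 correlated with r = 0.947 with each other, with r = 0.893 and 0.891 with replicate 3, and with r between 0.895 and 0.913 with the In/B libraries. Replicate 3 correlated with r = 0.906 and 0.911 with RA-sufficient replicates 2 and 3, more than with the other libraries of its own group. With RA-sufficient replicate 1 it correlated less than with its own group, at r = 0.869. There were 236 genes more than 4-fold above both other RA-deficient libraries in replicate 3 and 131 genes more than 4-fold below, against 4 and 4 genes for replicate 1 and 5 and 11 for replicate 2. Several results changed when this library was left out, and their values without it are given beside them. Among the In/B libraries, replicates 2 and 3 correlated with r = 0.986, and replicate 1 correlated with them with r = 0.970 and 0.965. For some genes, among them Stra8, Meioc and Rec8, In/B replicate 1 was far below In/B replicates 2 and 3.

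The labels were first compared with genes that respond to RA. Stra6, which encodes the cellular receptor for vitamin A transport, was measured at 7.68, 7.73 and 7.74 CPM in RA-deficient PL, at 122, 87.2 and 81.3 CPM in RA-sufficient PL and at 0.0559, 3.70 and 2.60 CPM in In/B spermatogonia. Cyp26a1, an RA-induced gene for an RA-degrading enzyme, was at 0, 0.475 and 1.18 CPM in RA-deficient PL and at 13.8, 9.76 and 13.4 CPM in RA-sufficient PL. Both genes were lower in every RA-deficient library than in any RA-sufficient library. Stra8, the RA-induced gene required for normal entry into meiotic prophase (chr6:34870163-34889342, mm9), did not follow this order. It was at 377, 365 and 81.5 CPM in RA-deficient PL, at 444, 126 and 121 CPM in RA-sufficient PL and at 54.4, 165 and 150 CPM in In/B, so that RA-deficient replicates 1 and 2 were above every In/B library and replicate 3 was within their range. By the test described below, 2 of 6 RA target genes were lower in RA-deficient than in RA-sufficient PL. The RA-induced gene Kit was higher (log2 difference 3.54), through replicates 1 and 2. In the same test 18 of 19 Sertoli cell markers were lower, and the part of Sertoli mRNA in the differences of Stra6 and Cyp26a1 was not tested.

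A gene was called changed when its log2 fold change was larger than 1 in either direction and its p-value, from the quasi-likelihood test of edgeR and adjusted after Benjamini and Hochberg over all tested genes, was below 0.05. Of the 14877 tested genes, 3446 (23.2%) were called, 1693 (11.4%) higher and 1753 (11.8%) lower in RA-deficient PL than in In/B. The counts of called genes in the lists below are to be read beside these shares. An unadjusted edgeR p below 0.05 was reached by 6819 of the 14877 genes in either direction. List counts at that limit are to be read beside this number. The median log2 fold change of all tested genes was 0.00. Among the called genes, 624 rose and 461 fell by more than 2 log2 units. Of the 3446 genes, 3037 were also called, in the same direction, when RA-deficient replicate 3 was left out, and 0 were called in the opposite direction. Without that library, 3995 of 15328 tested genes (26.1%) were called, 1770 (11.5%) higher and 2225 (14.5%) lower. Every RA-deficient library was above every In/B library for 21% of the 14877 genes and below for 33.6%. The balance of rises and falls depended on the scaling. With library size alone and no TMM factors, 3885 genes were called, 1123 higher and 2762 lower, and the median of all genes moved to -0.31.

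**Figure D1:**
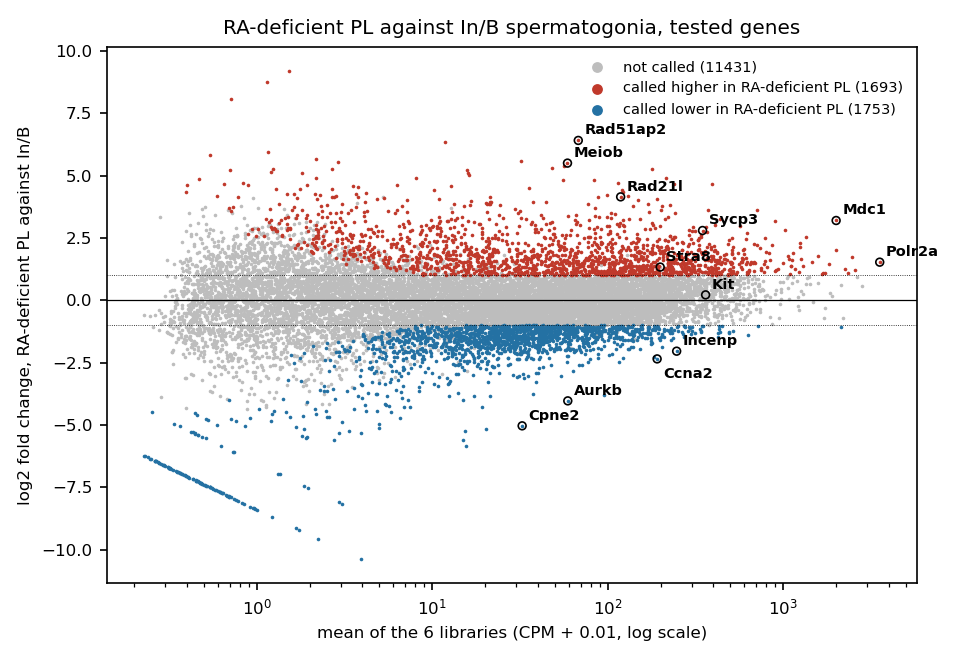
Each point is 1 tested gene, with its mean over the 3 In/B and 3 RA-deficient PL libraries on a log axis (CPM) against its log2 fold change (RA-deficient PL against In/B); red and blue points are the 1693 genes called higher and the 1753 called lower. The diagonal line of points at the lower left holds genes with no count in any RA-deficient library, whose fitted fold change depends on the prior count.

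Rises were most frequent among abundant mRNAs and falls among those of moderate level. Of the 2948 tested genes with a mean of 100 CPM or more, 620 (21.0%) rose and 191 (6.48%) fell, whereas of the 6289 genes between 10 and 100 CPM, 721 (11.5%) rose and 1134 (18%) fell. Longer transcripts also tended to be higher, with a median log2 fold change of 0.19 in the longest and -0.09 in the shortest of 5 equal groups of 14350 genes with a known length. The X chromosome, which is silenced later in male meiosis, held 571 tested genes, of which 82 (14.4%) rose and 77 (13.5%) fell, against 11.2% and 11.8% of 13770 autosomal genes.

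The 10 largest rises were taken from called genes that reached 10 CPM on average in the higher group and whose libraries did not overlap. They included 2 meiotic recombination genes. The largest was Rad51ap2 (chr12:11462885-11469734), which encodes a partner of the recombination machinery. It was at 1.29, 1.93 and 2.03 CPM in In/B and at 96.5, 92.5 and 213 CPM in RA-deficient PL, a log2 fold change of 6.42 (SE 0.43, edgeR's adjusted p of 6.55e-05). Every RA-deficient library was thus far above the range of In/B. Meiob (chr17:24941327-24976732), whose product binds single-stranded DNA during meiotic recombination, was at 3.19, 2.61 and 2.71 CPM in In/B and at 57.5, 49.7 and 238 CPM in RA-deficient PL. Its log2 fold change was 5.51 (SE 0.68), and 4.41 without replicate 3, which held the highest value.

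The other large rises were of genes with diverse roles. Celf6, an RNA-binding splicing regulator, rose by 6.37 log2 units, Pparg, a nuclear receptor of lipid metabolism that pairs with RXR, by 5.58, and Fbxo47, an F-box gene needed for meiotic prophase, by 5.39 (4.68 without replicate 3). Pparg was the most even of these, at 1.62, 1.47 and 1.30 CPM in In/B and 62.9, 54.3 and 70.7 CPM in RA-deficient PL. Unc13a, known for vesicle release at synapses, rose by 5.30, the homeobox gene Pbx3 by 5.27, the signalling adaptor gene Traf5 by 5.23, the protocadherin gene Pcdh17 by 5.12 (4.30 without replicate 3) and the MHC class II gene H2-Ab1 by 5.02.

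The 10 largest falls by the same rule held several genes of signalling. Cpne2, which encodes a calcium-dependent membrane-binding protein (chr8:97056890-97094429), was at 68.8, 57.3 and 63.8 CPM in In/B and at 1.56, 2.22 and 1.36 CPM in RA-deficient PL, a log2 fold change of -5.04 (SE 0.27, edgeR's adjusted p of 3.78e-05). Ntrk3, the receptor for neurotrophin-3, was at 32.7, 31.9 and 26.8 CPM in In/B and at 0, 0.515 and 0.918 CPM in RA-deficient PL, with a log2 fold change of -5.83, and -6.68 without replicate 3. The phosphodiesterase gene Pde1b (-5.60), Aif1l (-5.24), the homeobox gene Dmbx1 (-5.15), the matrix gene Fbln2 (-4.71), the RNA-binding gene Khdrbs2 (-4.47), the kinase gene Plk5 (-4.27) and the membrane protein gene Flrt2 (-4.26) were also among them. Libraries of the groups did not overlap for any of these 20 genes, as the rule required.

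Among the 609 genes with no count in RA-deficient PL, 163 had a mean of more than 10 counts in In/B and 4 a mean of more than 50. The glycine receptor subunit gene Glrb, chosen after its values were seen as the highest of them, had 140, 199 and 143 counts in the In/B libraries and 0 in each RA-deficient library, and was at least 63.3-fold lower taking 3 counts in each RA-deficient library as the limit.

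Genes of meiotic chromosomes rose. All 8 genes of the synaptonemal complex, the protein zipper that joins homologous chromosomes, were called higher, and all 8 were called again without replicate 3. Their median log2 fold change was 1.83. The median of all tested genes was 0.00, and 11.4% of them were called higher. Sycp3, the axis component (chr10:87922314-87935981), was at 81.0, 103 and 104 CPM in In/B and at 557, 532 and 701 CPM in RA-deficient PL, a log2 fold change of 2.80 (SE 0.16, edgeR's adjusted p of 3.85e-05). The gene of its axis partner, Sycp2, rose by 2.31 log2 units. The transverse filament gene Sycp1 rose by 1.51, and the central element genes Tex12, Syce2 and Syce1 rose by 2.02, 1.64 and 1.32. For all 8 genes every RA-deficient library was above every In/B library, against 21% of all tested genes.

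Of 8 genes for the attachment of telomeres to the nuclear envelope, 6 were called higher, against 11.4% of all tested genes. The median log2 fold change of the list was 2.83. Terb1, a member of the complex that binds meiotic telomeres, was at 9.67, 9.98 and 11.6 CPM in In/B and at 125, 148 and 221 CPM in RA-deficient PL, a log2 fold change of 4.15 (SE 0.25). Its partners Terb2 and Majin rose by 2.98 and 2.67. Ccdc155, which encodes the dynein-binding protein KASH5, rose by 3.81, and Spdya, an activator of CDK2 at telomeres, by 3.93. Sun1, the inner nuclear membrane partner of KASH5, was higher in every RA-deficient library, with a log2 fold change of 0.98 that missed the limit of 1.

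Of 8 genes that make or place meiotic double-strand breaks, 6 were called higher, against 11.4% of all tested genes, with a median of 2.06. Prdm9, the histone methyltransferase that marks hotspots, was at 50.3, 119 and 113 CPM in In/B and at 630, 633 and 636 CPM in RA-deficient PL, a log2 fold change of 2.92 (SE 0.29). Spo11, the enzyme that cuts the DNA, was at 5.14, 7.41 and 8.82 CPM in In/B and at 31.6, 27.9 and 124 CPM in RA-deficient PL, with a log2 fold change of 3.27, and 2.23 without replicate 3. Mei1 rose by 2.48, Ccdc36, which encodes IHO1 of the break machinery, by 1.63, and Zcwpw1, which reads the marks made by PRDM9, by 1.5. The remaining members, Rec114 and Mei4, were not called, with log2 fold changes of -0.69 and 0.13. Rec114 was at 19.7, 24.0 and 16.6 CPM in In/B and at 17.6, 12.3 and 3.37 CPM in RA-deficient PL, and its groups overlapped.

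**Figure D2:**
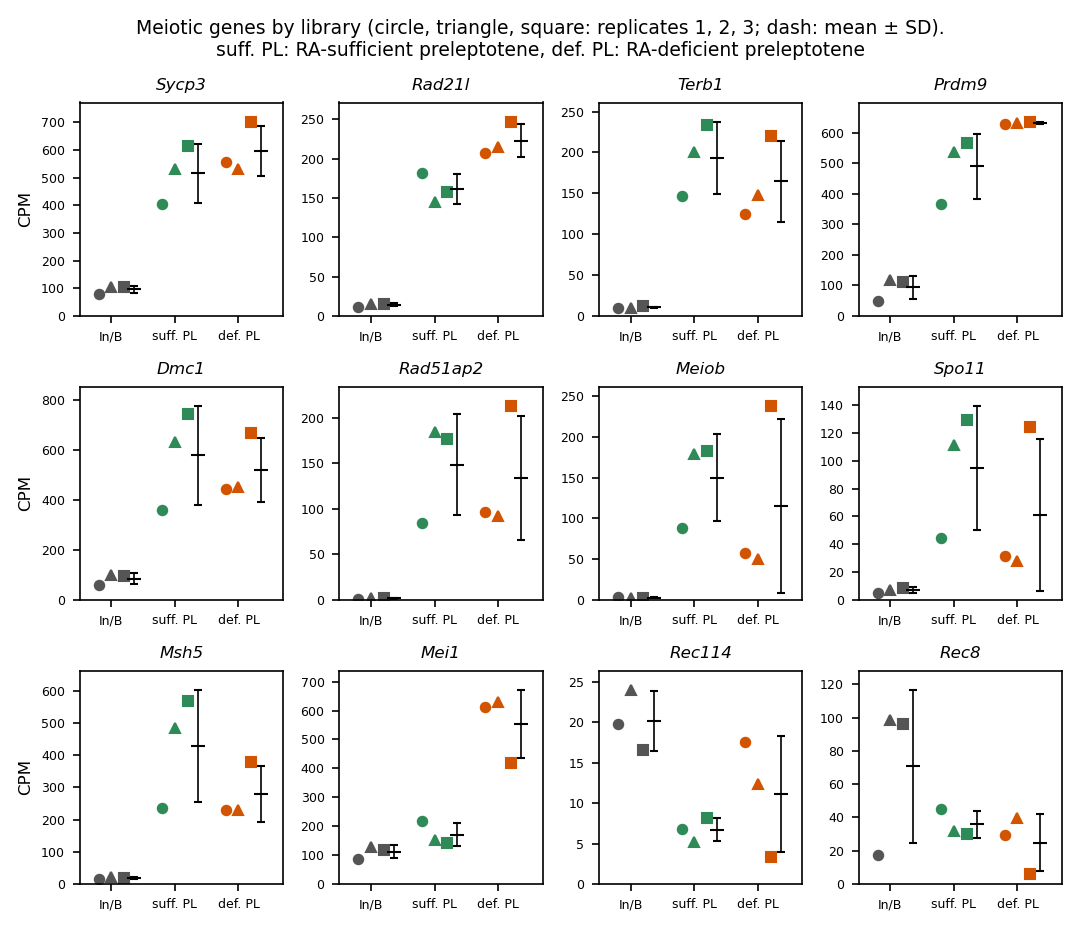
CPM of 12 meiotic genes (y axis, linear, from 0) in each library of In/B, RA-sufficient PL and RA-deficient PL; circles, triangles and squares are replicates 1, 2 and 3, and the dash with its bar is the mean ± SD of 3 libraries. In 10 panels all RA-deficient libraries are above all In/B libraries, while Rec114 and Rec8 overlap, and among the RA-deficient libraries Spo11 and Meiob are highest in replicate 3.

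The recombination genes went both ways. Of 22 genes for strand exchange, 6 rose and 4 fell, against 11.4% and 11.8% of all tested genes, with a median of -0.08. Without replicate 3, 7 rose and 2 fell, with a median of 0.13. The risers included Dmc1, the meiotic recombinase, at 58.7, 99.3 and 95.4 CPM in In/B and 445, 451 and 671 CPM in RA-deficient PL (log2 fold change 2.80, SE 0.24), as well as Spata22 (4.41), the partner of MEIOB, and Hsf2bp (3.35). Rpa1 and Rpa2, of the general single-strand binding complex, fell by 1.15 and 1.08 log2 units, and Rpa2 was not called without replicate 3.

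Of 12 crossover genes, 5 rose and 2 fell, against 11.4% and 11.8% of all tested genes, with a median of 0.04. Msh5, of the meiotic MutS complex, was at 16.5, 21.3 and 19 CPM in In/B and at 228, 229 and 379 CPM in RA-deficient PL, a log2 fold change of 4.05 (SE 0.24, edgeR's adjusted p of 4.76e-05). The helicase gene Hfm1 rose by 4.05 and Msh4, the partner of Msh5, by 2.45. Tex11, an X-linked crossover gene, was at 341, 489 and 435 CPM in In/B and 408, 386 and 343 CPM in RA-deficient PL, with overlapping groups.

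Cohesin genes also went both ways. Of the 4 meiotic subunits, 3 rose, against 11.4% of all tested genes. Rad21l (chr2:151471140-151494269), a meiotic kleisin, was at 12, 15.0 and 15.1 CPM in In/B and at 207, 214 and 247 CPM in RA-deficient PL, with a log2 fold change of 4.15 (SE 0.16, edgeR's adjusted p of 1.56e-05) that changed little without replicate 3 (4.08). Smc1b and Stag3 rose by 1.68 and 1.15. Their mitotic counterparts Rad21 and Smc1a fell by 1.34 and 1.61 log2 units, while Smc3, which serves in both kinds of complex, rose by 1.34. The fourth meiotic subunit, the kleisin gene Rec8, was not called. It was at 17.5, 98.4 and 96.1 CPM in In/B and at 29.4, 39.5 and 5.86 CPM in RA-deficient PL, and each group spanned a wide range.

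Among 17 genes of HORMA-domain proteins and meiotic checkpoints, 7 rose and 2 fell, against 11.4% and 11.8% of all tested genes. The median was 0.61. Mdc1, which spreads the DNA damage signal along chromatin (chr17:35978460-35996615), was at 318, 483 and 504 CPM in In/B and at 3093, 3176 and 4423 CPM in RA-deficient PL, a log2 fold change of 3.20 (SE 0.21). Atr, the kinase that acts with it on unsynapsed chromosomes, rose by 2.81, and Hormad1 and Hormad2, which mark unsynapsed axes, by 2.44 and 2.5. The checkpoint kinase gene Chek2 and the clamp subunit gene Rad9a fell by 1.58 and 1.73. Trip13, the ATPase that removes HORMA proteins from axes, had a log2 fold change of -0.73 and was not called.

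Promoters of 3 of these meiotic genes, which encode a MutS subunit, a helicase and an axis protein, are printed because each holds the letters CNCCTCAG, described for promoters that STRA8 binds. The 250 bases before the start of transcription are from RefSeq (GRCm38.p6), written 5′ to 3′ along the minus strand, with the match in capitals. Each match is on the opposite strand of the promoter and therefore reads CTGAGGNG.
Msh5 (chr17:35046623-35046872, minus strand): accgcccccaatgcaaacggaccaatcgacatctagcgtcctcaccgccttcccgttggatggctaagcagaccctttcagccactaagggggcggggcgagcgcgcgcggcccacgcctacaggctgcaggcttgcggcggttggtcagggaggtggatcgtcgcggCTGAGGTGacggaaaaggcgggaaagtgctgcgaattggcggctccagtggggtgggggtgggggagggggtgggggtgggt
Hfm1 (chr5:106925891-106926140, minus strand): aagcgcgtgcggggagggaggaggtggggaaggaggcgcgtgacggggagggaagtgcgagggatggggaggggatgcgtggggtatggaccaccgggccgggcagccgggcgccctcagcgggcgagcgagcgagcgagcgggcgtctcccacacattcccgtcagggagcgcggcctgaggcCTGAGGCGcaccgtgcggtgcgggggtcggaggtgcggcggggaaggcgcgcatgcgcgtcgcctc
Hormad2 (chr11:4441083-4441332, minus strand): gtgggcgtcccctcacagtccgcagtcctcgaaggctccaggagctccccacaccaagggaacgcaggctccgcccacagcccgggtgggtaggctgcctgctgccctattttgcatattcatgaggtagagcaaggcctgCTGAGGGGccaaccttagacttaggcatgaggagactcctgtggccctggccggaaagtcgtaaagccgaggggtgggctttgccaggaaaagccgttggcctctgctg

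The match began 82 bases before the start in Msh5, 66 in Hfm1 and 109 in Hormad2. On both strands and in a window from 250 bases before to 50 bases after the start, these letters were found in 7.97% of 27025 RefSeq promoters and in 9.42% of the 11447 tested genes that had a window. They were in 219 of 1326 promoters of genes called higher (16.5%), in 76 of 1342 of genes called lower (5.66%) and in 8.92% of the promoters of tested genes that were not called. Among the promoters of genes that rose by more than 3 log2 units the share was 20.4%. Of 34 meiotic chromosome and recombination genes that were called higher and had a window, 7 held them. The E-box CACGTG and the E2F letters GGCGGGAA were each found in 7 of the 34. The sets of genes with each motif overlapped only in part. Msh5 held the E2F letters too, which are not in capitals above. Over all genes, the E-box was in 9.28% of promoters of genes called higher and 10.1% of those called lower, and the E2F letters were in 5.58% and 4.17%. The median GC content was 62.7% for genes called higher and 60.7% for genes called lower. The windows were only searched for letters, and a match is not a measurement of binding.

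Of 4 tested genes that act at meiotic initiation, 1 was called higher, against 11.4% of all tested genes. The median log2 fold change was 0.97, and 2 were called higher without replicate 3. Stra8 had a log2 fold change of 1.34 (SE 0.59, edgeR's adjusted p of 0.113) and was not called, but reached 1.77 and was called without replicate 3. Meioc, whose product lets germ cells leave the mitotic cycle, was at 224, 554 and 595 CPM in In/B and at 866, 796 and 677 CPM in RA-deficient PL. It had a log2 fold change of 0.94, and 1.04 and called without replicate 3. In In/B replicate 1, Meioc was far below its level in the other In/B libraries. Its partner Ythdc2 was called at 1.01 and lost the call in 7 of 15 alternative settings, among them the fit without replicate 3 (0.78). Rbm46, the RNA-binding gene of the same stage, had a log2 fold change of -0.33.

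Of 18 tested genes for RA synthesis, breakdown and reception, 3 rose and 2 fell, near the shares of all tested genes (11.4% and 11.8%), with a median of -0.04. Without replicate 3, 2 rose and 3 fell. Aldh1a2, the retinal dehydrogenase of germ cells and a target of the inhibitor, was at 39.2, 56.2 and 48.4 CPM in In/B and at 150, 139 and 201 CPM in RA-deficient PL, a log2 fold change of 1.94 (SE 0.19, edgeR's adjusted p of 0.000253). Rdh10, which makes retinal from retinol, rose by 1.85. Aldh1a1, an isoform more typical of Sertoli cells, rose by 1.44 but was not called without replicate 3. Crabp1, which binds RA in the cytoplasm, and the receptor gene Rxra fell by 1.84 and 1.35 log2 units, whereas Rarg, the RAR of spermatogonia, was at 108, 90.7 and 82.4 CPM in In/B and at 81.5, 82.4 and 50.8 CPM in RA-deficient PL and was not called. None of 6 tested RA target genes was called by edgeR or DESeq2, and none had an unadjusted edgeR p below 0.05, while Stra8 was called higher without replicate 3. Among these, Stra6 was higher in every RA-deficient library than in any In/B library (log2 fold change 2.04), and its edgeR adjusted p was 0.14.

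Of 26 genes of stem and progenitor spermatogonia, 4 rose and 0 fell, against 11.4% and 11.8% of all tested genes, with a median of 0.53, and 2 rose without replicate 3. Gfra1, the receptor for the stem cell factor GDNF, was at 14.8, 8.92 and 7.74 CPM in In/B and at 24.8, 17.9 and 20.5 CPM in RA-deficient PL (log2 fold change 1.17), and lost its call in 6 of 15 settings. Id4 (1.40) and Etv5 (1.20) were not called without replicate 3. Taf4b, a germ cell subunit of the general transcription factor TFIID, rose by 1.56 and kept its call in all 15 alternative settings. Zbtb16, which maintains progenitors, was at 304, 172 and 172 CPM in In/B and at 168, 145 and 227 CPM in RA-deficient PL, with overlapping groups.

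Of 11 genes of differentiating spermatogonia, 1 rose and 3 fell, against 11.4% and 11.8% of all tested genes, with a median of -0.59. Without replicate 3, 2 rose and 3 fell, and the median was -0.16. The falls were of Ccnd1, a G1 cyclin, by 2.26, the DNA methyltransferase gene Dnmt3b by 1.99, and Dmrtb1, a regulator of the passage from mitosis to meiosis, by 1.85. Dmrtb1 was at 366, 328 and 281 CPM in In/B and at 93.5, 81.8 and 65.0 CPM in RA-deficient PL. Sohlh2 rose, from 79.5, 79.5 and 79.4 CPM to 203, 195 and 103 CPM (log2 fold change 1.24, SE 0.25).

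Kit, Dmrt1 and Sohlh1 of this list divided the RA-deficient libraries. Kit encodes the receptor for stem cell factor. It (chr5:75970941-76052747) was at 404, 327 and 331 CPM in In/B and at 561, 521 and 20.3 CPM in RA-deficient PL. Replicates 1 and 2 were above the In/B range, and replicate 3 was in the range of RA-sufficient PL (41.0, 32.8 and 20.2 CPM). Dmrt1 was at 711, 538 and 534 CPM in In/B and at 460, 485 and 111 CPM in RA-deficient PL, and Sohlh1 at 108, 68.2 and 63.4 CPM and at 60.8, 65.2 and 16.3 CPM. In RA-sufficient PL both were low in every library, with 72.1 to 76.8 CPM of Dmrt1 and 5.67 to 10.7 CPM of Sohlh1. Uchl1, whose promoter drives the reporter used for the sort, was at 3657, 2451 and 2352 CPM in In/B and at 1728, 1885 and 991 CPM in RA-deficient PL (log2 fold change -0.71, not called). It was at 425 to 613 CPM in RA-sufficient PL.

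Among genes of mitotic division, falls were most frequent in those of the spindle. Of 25 genes for mitotic entry, the spindle and its checkpoint, 14 fell and 1 rose, with a median log2 fold change of -1.31, against 11.8% of all tested genes called lower. Aurkb, the kinase of the chromosomal passenger complex (chr11:68859149-68865166), was at 116, 113 and 108 CPM in In/B and at 7.08, 3.17 and 8.09 CPM in RA-deficient PL, a log2 fold change of -4.03 (SE 0.34, edgeR's adjusted p of 0.000135). Incenp, its scaffold, was at 423, 398 and 396 CPM in In/B and at 96.6, 88.0 and 79.1 CPM in RA-deficient PL (-2.04). Ccnb1 and Cdk1, the cyclin and kinase that drive entry into M phase, fell by 3.11 and 2.32 log2 units, and the kinase genes Plk1 and Aurka by 2.37 and 1.93. The single riser was Bub1, a checkpoint kinase that also acts in meiosis, which went from 230, 248 and 252 CPM to 582, 567 and 918 CPM (1.67).

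The other mitotic genes moved less uniformly, and among all tested genes 11.8% fell and 11.4% rose. Of 9 kinetochore genes, 2 fell and 1 rose, and Cenpa, the centromeric histone H3, fell by 3.05 log2 units, from 66.4, 62.8 and 61.4 CPM to 9.48, 5.86 and 5.16 CPM. Of 16 genes for motors, cytokinesis and chromosome condensation, 3 rose and 2 fell, with a median of 0.34. Top2a, the topoisomerase that untangles sister chromatids, rose by 1.10, and Kif23, a motor of the cytokinetic bridge, by 1.16. Cdca5, which encodes the cohesin protector sororin, fell by 1.99.

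**Figure D3:**
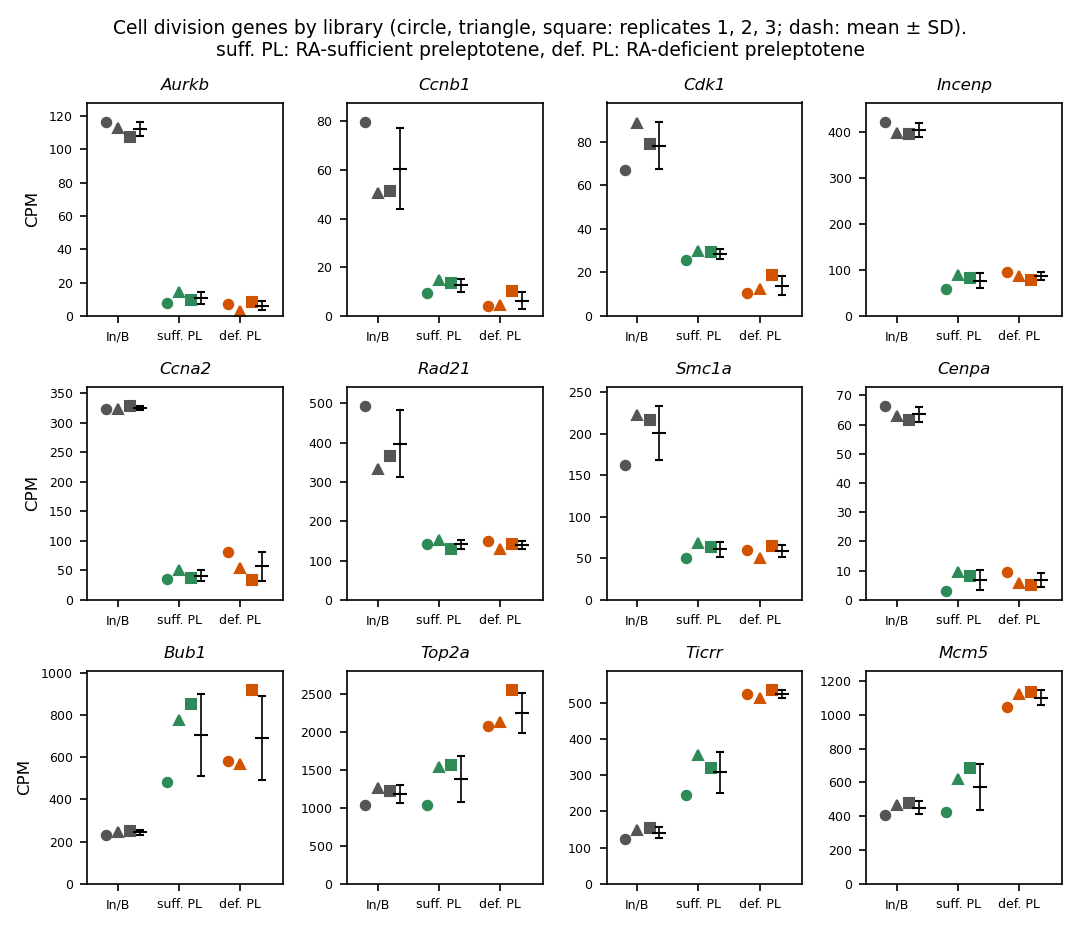
CPM of 12 genes of cell division and replication (y axis, linear, from 0) in each library of the 3 groups; circles, triangles and squares are replicates 1, 2 and 3, and the dash with its bar is the mean ± SD of 3 libraries. The first 8 genes are lower in every RA-deficient library than in any In/B library, and Bub1, Top2a, Ticrr and Mcm5 are higher.

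Of 8 cyclin genes, 2 fell and 1 rose, against 11.8% and 11.4% of all tested genes. Without replicate 3, 3 fell and 2 rose. Ccna2, the cyclin of S phase and G2 (chr3:36463788-36471072), was at 323, 323 and 329 CPM in In/B and at 81.8, 54.6 and 34 CPM in RA-deficient PL (log2 fold change -2.35, SE 0.29). Ccnb3, an X-linked cyclin of meiosis, was at 27, 54.2 and 52.6 CPM in In/B and at 217, 200 and 541 CPM in RA-deficient PL (3.01, and 2.40 without replicate 3). Ccna1, the cyclin of later spermatocytes, was at 2.46, 2.23 and 3.79 CPM in In/B and at 0, 0 and 6.30 CPM in RA-deficient PL. Among cyclin-dependent kinases, their inhibitors and E2F factors, 6 of 18 fell and 0 rose. The repressor E2f7 fell by 2.46 log2 units, the inhibitor gene Cdkn1a by 1.86, E2f6, which keeps meiotic genes silent in other cells, by 1.31, and its dimer partner Tfdp1 by 1.58.

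Genes of DNA replication went both ways although PL spermatocytes are in S phase. Of 48 genes, 5 rose and 10 fell, against 11.4% and 11.8% of all tested genes, with a median of -0.33. Without replicate 3, 5 rose and 8 fell, with a median of -0.28. Ticrr, which starts replication origins, rose from 124, 148 and 153 CPM to 524, 512 and 535 CPM (log2 fold change 2.06, SE 0.11), the polymerase epsilon gene Pole by 1.62, the helicase subunit gene Mcm5 by 1.46 and Rrm2, of ribonucleotide reductase, by 1.30. Rfc1, of the clamp loader, fell from 388, 434 and 413 CPM to 141, 138 and 121 CPM (-1.46). The licensing genes Cdt1 and Mcm2 fell by 1.36 and 1.30 log2 units and were not called without replicate 3, and Cdc6 fell by 1.22. Pcna, the clamp itself, overlapped between the groups, at 218, 249 and 212 CPM and at 222, 220 and 260 CPM.

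Genes of protein synthesis, energy and lipid supply were mostly lower, with small changes. Of 83 cytosolic ribosomal protein genes, 12 fell and 3 rose, with a median of -0.40. Of 78 mitochondrial ribosomal protein genes, 10 fell and 0 rose (11 and 1 without replicate 3, median -0.42), and of 62 translation factor genes, 10 fell and 4 rose (median -0.42). Among all tested genes 11.8% fell and 11.4% rose. Eif4a1, the helicase that opens mRNAs for scanning, was at 518, 493 and 479 CPM in In/B and at 193, 179 and 173 CPM in RA-deficient PL (log2 fold change -1.29, SE 0.10). Rps18 fell by 1.26 log2 units and Rps20 rose by 1.51, and ribosomal protein genes have many processed copies that could share their reads.

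Falls were more frequent among genes of oxidative phosphorylation, with 17 of 79 lower and 2 higher (15 and 4 without replicate 3, median -0.46), and among 37 proteasome genes, with 9 lower and 0 higher (median -0.44). Atp5c1, of the ATP synthase, was at 251, 302 and 290 CPM in In/B and at 75.6, 81.6 and 63.5 CPM in RA-deficient PL (log2 fold change -1.76, SE 0.14). Ndufa11, of complex I, fell by 1.98 log2 units, and the proteasome genes Psmd5 and Psmc1 by 1.94 and 1.49. Of 21 genes of cholesterol synthesis, 7 fell and 0 rose (median -0.40), Nsdhl by 1.62 and Dhcr7 by 1.35. Among all tested genes 11.8% fell and 11.4% rose. Many of these genes are short, with a median transcript length of 1434 bases for cytosolic ribosomal proteins and 1265 bases for oxidative phosphorylation, and the shortest of the 5 length groups (up to 1971 bases) had a median log2 fold change of -0.09. The part that length plays was not tested.

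Of 20 tested glycolysis genes, 2 rose and 4 fell, against 11.4% and 11.8% of all tested genes, with a median of 0.28. Without replicate 3, 2 rose and 7 fell, 3 of them testis isoforms, and the median was -0.30. Gapdh was at 221, 218 and 208 CPM in In/B and at 87.5, 68.1 and 29.9 CPM in RA-deficient PL (log2 fold change -1.63), and the hexokinase gene Hk1 fell by 1.29. Pkm, of the last step, rose from 164, 144 and 117 CPM to 358, 412 and 294 CPM (1.49).

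**Figure D4:**
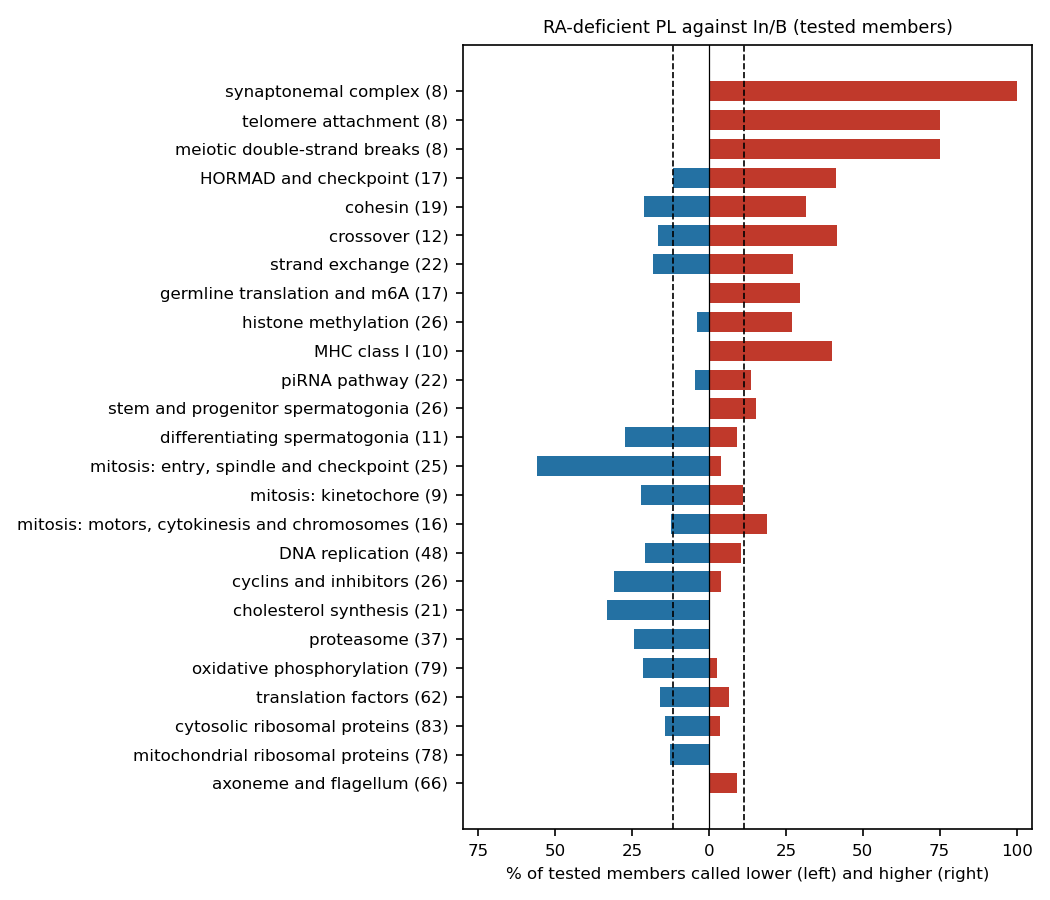
Share of the tested members of 25 gene lists that were called higher (red bars, to the right) and lower (blue bars, to the left) in RA-deficient PL against In/B, in percent, with the number tested beside each name. Dashed lines mark the shares of all 14877 tested genes, 11.4% higher and 11.8% lower. The bars of the synaptonemal complex, telomere and double-strand break genes reach 75% or more on the right, and the bar of mitotic entry and spindle genes is the longest on the left.

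The genes that took the largest shares of reads differed between the groups. Polr2a, the largest subunit of RNA polymerase II (chr11:69547499-69572139), had the largest share in RA-deficient PL, 0.472% ± 0.012 (SD, n = 3) of all counts. It was at 1767, 2044 and 2133 CPM in In/B and at 5167, 4906 and 5234 CPM in RA-deficient PL, a log2 fold change of 1.53 (SE 0.09, edgeR's adjusted p of 4.63e-05). The kinase gene Wnk1 followed with 0.338% and rose by 1.73, then Mdc1 with 0.329% and Prrc2a with 0.318%. In In/B spermatogonia the largest shares were of the chaperone gene Hsp90ab1, with 0.309% ± 0.042 (SD, n = 3), and of Uchl1, with 0.291%. Hsp90ab1 fell by 1.09 and was not called without replicate 3. These shares grow with the length of a transcript and do not rank the mRNAs by number.

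Regulators of RNA and chromatin were among the rises, and among all tested genes 11.4% rose and 11.8% fell. Of 8 genes of the DAZ, CPEB and Pumilio families, which control translation in germ cells, 5 rose and 0 fell, with a median of 1.09. Cpeb3 was at 1.79, 3.10 and 1.92 CPM in In/B and at 19.2, 23.3 and 28.3 CPM in RA-deficient PL (log2 fold change 3.54, SE 0.34), Cpeb4 rose by 2.03 and Dazl by 1.09. None of 9 tested genes of m6A, the methyl mark on mRNA, was called by edgeR or DESeq2. At an unadjusted edgeR p below 0.05, 5 were higher, against 6819 of all 14877 tested genes in either direction. Of 26 genes of histone methylation, 7 rose and 1 fell, with a median of 0.76, and Setdb1, which methylates H3K9 and acts on the sex chromosomes in meiosis, rose from 318, 368 and 388 CPM to 1180, 1123 and 1404 CPM (1.95). Scmh1, of Polycomb, rose by 1.59.

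Of 8 tested genes of DNA methylation, 2 fell and 1 rose, against 11.8% and 11.4% of all tested genes. Dnmt3b went from 163, 88.5 and 88.5 CPM to 26.8, 32.1 and 17.4 CPM, and Uhrf1, which guides the maintenance methyltransferase, fell by 1.23 log2 units. Of 19 genes of the repressive complex PRC1.6 and its MYC-family partners, 3 fell and 1 rose, with log2 fold changes of -1.44 for Mycn and 1.6 for Pcgf6. Of 22 genes of the piRNA pathway, which silences transposons, 3 rose and 1 fell, against 11.4% and 11.8% of all tested genes, and 2 rose and 3 fell without replicate 3. Tex15 rose from 883, 832 and 870 CPM to 2814, 2667 and 3916 CPM (2.03), Gpat2 by 1.85 and Mael by 1.02, the last not called without replicate 3. Pnldc1, which trims piRNA ends, fell by 1.29.

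Of 10 tested genes of MHC class I antigen presentation, 4 were called higher and 0 lower, against 11.4% and 11.8% of all tested genes. The median was 1.46. H2-D1 (chr17:35399675-35404444) was at 3.69, 4.73 and 4.35 CPM in In/B and at 54.5, 50.5 and 217 CPM in RA-deficient PL, a log2 fold change of 4.82 (SE 0.63), and 3.79 without replicate 3. H2-K1 rose by 2.84 and B2m, the common light chain, from 10.1, 12.9 and 11.1 CPM to 67.7, 42.0 and 41.3 CPM (2.31). Tap2, of the peptide transporter, was called at 3.31 but not without replicate 3. The classical H2 genes are close copies of each other, so that their counts may hold reads of a neighbour.

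Of 17 immediate early genes, 4 rose and 1 fell, against 11.4% and 11.8% of all tested genes. Egr1 was at 118, 55.0 and 53.7 CPM in In/B and at 163, 154 and 181 CPM in RA-deficient PL (log2 fold change 1.29), and Nr4a1 rose by 1.62. None of 7 heat shock genes was called by edgeR or DESeq2, and 2 were higher at an unadjusted edgeR p below 0.05. Of all 14877 tested genes, 6819 were below that p in either direction. Of 14 genes of the integrated and endoplasmic reticulum stress responses, 2 rose and 3 fell, with log2 fold changes of 1.77 for the chaperone gene Hspa5 and -1.98 for Xbp1. Of 17 apoptosis genes, 3 fell and 1 rose, against 11.8% and 11.4% of all tested genes, and 6 fell and 2 rose without replicate 3. Bax, a promoter of cell death, fell from 102, 98.9 and 92.8 CPM to 34.4, 33.8 and 24.9 CPM (-1.49).

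Genes of later spermatocytes divided into regulators and products. Of 7 regulators, 4 rose and 0 fell, against 11.4% and 11.8% of all tested genes. Without replicate 3, 4 rose and 1 fell. Mybl1, the master regulator of pachytene transcription, was at 7.10, 16.2 and 16.5 CPM in In/B and at 124, 117 and 226 CPM in RA-deficient PL (log2 fold change 3.72, SE 0.40), Sox30 rose by 2.88 and Taf7l by 1.24. Of 6 tested product genes, 1 rose. This was Hspa2, the chaperone of spermatocytes, at 57.6, 73.0 and 63.6 CPM in In/B and at 132, 145 and 244 CPM in RA-deficient PL (1.59).

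Of the other late products, Ldhc, Piwil1, Ccna1 and Clgn were lower in RA-deficient replicates 1 and 2 than in every In/B library but not in replicate 3, and these 4 were called lower without it. Ldhc, the lactate dehydrogenase of spermatocytes, was at 6.88, 34.2 and 35.4 CPM in In/B and at 0.800, 1.74 and 89.8 CPM in RA-deficient PL. Tdrd6, of the chromatoid body and listed with the piRNA pathway, was at 1.9, 17.6 and 17.7 CPM in In/B and at 0.680, 0.911 and 35.3 CPM in RA-deficient PL. With replicate 3 neither was called. Without it Ldhc had a log2 fold change of -4.14 and Tdrd6 of -3.77, and both were called lower. Piwil1, the PIWI protein of pachytene cells, was at 24.1, 45.9 and 43.6 CPM in In/B and at 3.92, 4.75 and 40.1 CPM in RA-deficient PL, and was called lower without replicate 3 (-2.95). In RA-sufficient PL, Ldhc was at 562, 183 and 171 CPM and Tdrd6 at 295, 111 and 79.9 CPM.

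Genes of the sperm axoneme were also unevenly spread over the RA-deficient libraries. Of 66 tested axoneme and flagellum genes, 6 rose and 0 fell with all libraries, with a median of 0.63, against 11.4% and 11.8% of all tested genes. Of those that were lower, 4 had an unadjusted edgeR p below 0.05, and DESeq2 called 3 (Dnaaf3, Spef1 and Cfap77). Without replicate 3, 5 of 67 rose and 11 fell, against 11.5% and 14.5% of all genes in that fit, and the median was -0.36. The summed level of the list was 920 and 973 CPM in RA-deficient replicates 1 and 2, 1814 CPM in replicate 3, 1013 to 1188 CPM in In/B, and 2403 to 6068 CPM in RA-sufficient PL. Rsph1, of the radial spoke, was at 13.8, 43.4 and 38.0 CPM in In/B, at 6.84, 7.33 and 131 CPM in RA-deficient PL and at 501, 198 and 168 CPM in RA-sufficient PL. Spag17, of the central pair, was at 2.74, 11.6 and 12.7 CPM in In/B and at 0.360, 0.872 and 21.7 CPM in RA-deficient PL, and had a log2 fold change of -3.68 and was called without replicate 3. Slc2a3, the glucose transporter of late germ cells, repeated this order at 16.7, 54.3 and 59.0 CPM and at 10.1, 9.91 and 119 CPM.

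**Figure D5:**
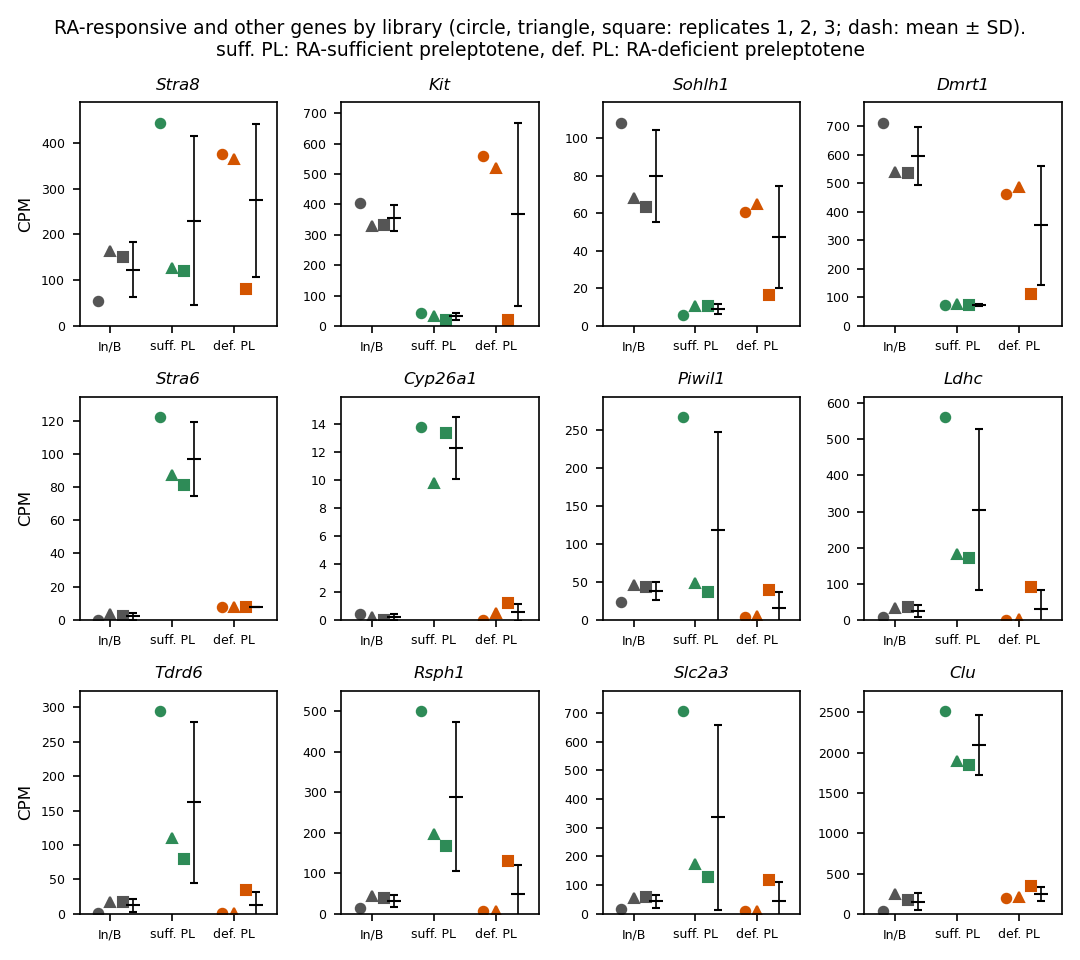
CPM of 12 genes (y axis, linear, from 0) in each library of In/B, RA-sufficient PL and RA-deficient PL; circles, triangles and squares are replicates 1, 2 and 3, and the dash with its bar is the mean ± SD of 3 libraries, cut off at 0. RA-deficient replicate 3 is far below replicates 1 and 2 for Stra8, Kit, Sohlh1 and Dmrt1 and above them for Piwil1, Ldhc, Tdrd6, Rsph1 and Slc2a3, while Stra6 and Clu are far below RA-sufficient PL in all 3 libraries.

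Markers of other testis cells were checked because a sort can carry them over. Germ cell markers were high in all libraries, with Ddx4 at 540, 532 and 534 CPM in In/B and at 504, 449 and 527 CPM in RA-deficient PL. The 19 Sertoli markers of the table summed to 219, 658 and 472 CPM in In/B and to 618, 634 and 958 CPM in RA-deficient PL, against 4507 to 6218 CPM in RA-sufficient PL. Of 18 tested, 16 had a log2 fold change above 0 against In/B, with a median of 0.84. For 7 of them every RA-deficient library was above every In/B library, against 21% of all tested genes. The 2 that were called higher, against 11.4% of all tested genes, were Aard (1.94) and Amh (2.77). Amh was not called without replicate 3. Without replicate 3, 1 of 19 was called higher and 1 lower. Clu was at 38.5, 250 and 168 CPM in In/B and at 194, 208 and 348 CPM in RA-deficient PL, and Sox9 at 2.01, 8.28 and 5.60 CPM and at 5.80, 7.88 and 17.2 CPM, with overlapping groups.

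The other somatic lists were low. The 15 peritubular and stromal markers summed to 130 to 197 CPM in In/B and 211 to 283 CPM in RA-deficient PL, and 3 of 13 tested were called higher, or 5 without replicate 3. These were Dcn (1.93), Pdgfra (1.87) and Tagln (1.77). Among all tested genes 11.4% were called higher. The Leydig markers summed to 13.9 to 25.3 CPM and 19.2 to 37.9 CPM, the macrophage and blood markers to 6.32 to 9.41 CPM and 7.69 to 13.4 CPM, and the endothelial markers to 10.1 to 14.1 CPM and 10.4 to 21.3 CPM. None of these 3 lists held a gene called by edgeR, while DESeq2 called C1qb and Cdh5 higher, which were the 2 members with an unadjusted edgeR p below 0.05. Hba-a1, Hbb-b1 and Ptprc, which define red and white blood cells, were at 0 in every library of both groups. The part of somatic mRNA in the rises of Aldh1a1, H2-Ab1 and other genes that somatic cells also use was not tested.

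Whether the end point differed from that with RA was tested directly between the PL groups. Of 15352 genes, 2383 (15.5%) were called, 687 (4.47%) higher and 1696 (11%) lower in RA-deficient PL. Without RA-deficient replicate 3, 4484 of 15799 genes (28.4%) were called, 1266 (8.01%) higher and 3218 (20.4%) lower. None of the 8 synaptonemal complex genes, the 8 telomere genes, the 22 strand exchange genes or the 19 cohesin genes was called by edgeR or DESeq2. At an unadjusted edgeR p below 0.05, 10 cohesin genes, 4 strand exchange genes, 1 synaptonemal complex gene and 1 telomere gene were higher in RA-deficient PL, and 2 telomere genes were lower. The share of all genes below that p is not given for this comparison. Without replicate 3, 1 cohesin gene and 1 strand exchange gene were called higher and 1 strand exchange gene lower. The difference was 0.21 log2 units (SE 0.16) for Sycp3 and -0.14 (SE 0.26) for Dmc1. Of the 8 break genes only Mei1 was called, higher by 1.69 log2 units in RA-deficient PL, whereas 2 were called higher and 1 lower without replicate 3. Of 12 crossover genes 1 was called higher, or 2 higher and 1 lower without replicate 3. Among 17 genes of HORMA-domain proteins and checkpoints 1 was called higher, with and without replicate 3.

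Part of the spermatogonial genes were higher in RA-deficient than in RA-sufficient PL. Of 11 differentiating spermatogonial genes, 6 were called higher and 1 lower, with a median of 1.74, and of 26 stem and progenitor genes, 8 were called higher and 0 lower, against 4.47% of all genes called higher. Without replicate 3 these counts were 8 and 1 in both lists. Polr2a was higher by 1.64 log2 units, with 1554, 1794 and 1534 CPM in RA-sufficient PL. Of 72 axoneme genes, 9 were called lower and 0 higher, near the 11% of all genes called lower, with a median of -1.85. Without replicate 3, 51 of them were called lower, against 20.4% of all genes. Of 19 Sertoli markers, 18 were called lower, with a median of -3.05, so that Sertoli mRNA moved with the difference between the PL groups, and its part in other differences between them was not tested.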

How the data were processed

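The series holds 3 In/B, 3 RA-deficient PL and 3 RA-sufficient PL mRNA libraries. The deposited table holds raw counts per gene for 24505 genes, which the authors made from single-end reads of stranded poly(A) libraries, trimmed with cutadapt 1.9, aligned to mm9 with STAR 2.5.2b and counted with featureCounts. The gene annotation and the strand setting of the counting are not given in the sources used here, so genes that overlap on opposite strands may share counts. All 9 columns were matched to samples by name, 26 gene names had been changed to dates by a spreadsheet, and 0 rows named no gene. Totals per library ran from 12612959 to 27042274 counts, and limits given for a count of 0 cover counting error only.

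Tests used edgeR 4.0.16 in R 4.3.3 on the libraries of the groups compared, with TMM scaling, filterByExpr, the quasi-likelihood test and Benjamini-Hochberg adjustment over all tested genes (14877 against In/B, 15352 between the PL groups), with calls at a log2 fold change larger than 1 in either direction and an adjusted p below 0.05. CPM are from edgeR over all 9 libraries. The test was tested on simulated data. The p-values measure the spread between the 3 libraries of each group, which the paper describes as independent cell preparations. The named genes are the 10 largest rises and falls with a mean of at least 10 CPM in the higher group and no overlap, the key members of 44 gene lists, the 3 called members of each list with the lowest p in each direction, and the 5 genes with the largest share of counts in a group. Glrb, Clgn and the genes named as called by DESeq2 alone fall outside this rule and were named after their values were seen, and a few genes that meet it are not reported here. The genes and lists were chosen with earlier results of these data known, and lists are described by counts and medians, without a test. A gene with at most 3 counts in every library of a group was given a bound in place of a fold change. Coordinates are from GENCODE M1 (mm9), in which 20350 names matched and 1663 matched by an older name. Promoters are from RefSeq. Alternatives were RLE factors, library size only, other filters and thresholds, all 9 libraries in a single fit, leaving out each library, a replicate block and DESeq2 1.42.0. The plots were made with matplotlib 3.10.9.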

Additional observations from a re-analysis of the deposited data

Results flagged for a closer look

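Of the genes named for RA-deficient PL against In/B that could be tested between the PL groups, 31 of 181 were called in that direct edgeR test, near the 15.5% of all genes called there. For these 31 the change from In/B differed between the RA-deficient and RA-sufficient groups, whose Sertoli mRNA differed too. All 31 were called again without RA-deficient replicate 3, in a fit that called 4484 genes. That fit held 2327 of the 2383 genes called with all libraries, so this recall says little about the 31. The fits without an RA-sufficient library, which called 1190 to 1283 genes, are not given for the 31. The values that follow are log2 differences of RA-deficient minus RA-sufficient PL. The 16 that were higher included the spermatogonial genes Kit (3.54), Sohlh1 (2.41), Dmrt1 (2.25), Sohlh2 (1.84), Uchl1 (1.56) and Zbtb16 (1.39). The meiotic genes Mei1 (1.69), Trip13 (1.26) and Tex11 (1.08) were higher too, as were Polr2a (1.64), Rrm2 (1.58), E2f7 (1.10), the receptor genes Rarg (1.74) and Rxra (1.16) and the immediate early genes Nr4a1 (1.98) and Egr1 (1.31).

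The 15 that were lower included the RA-responsive genes Cyp26a1 (-4.48) and Stra6 (-3.66), the Sertoli markers Clu (-3.08), Sox9 (-2.54), Aard (-2.0) and Amh (-1.64), Flrt2 (-4.08) and Tap2 (-3.07). Spef1 (-2.79), Clgn (-2.23), Aldh1a1 (-1.79), Cdkn1a (-1.88), Catsper2 (-1.57), Aurka (-1.34) and Cdk1 (-1.03) completed them. The summed level of the Sertoli markers was 618 to 958 CPM in RA-deficient PL and 4507 to 6218 CPM in RA-sufficient PL. The part of Sertoli mRNA in the differences of Aldh1a1 and the other genes named here was not tested.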

How the results depend on the processing

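The count of 3446 called genes against In/B stayed within 1.5 times in every alternative but the test against a fold change of 2, which left 1207. It was 3973 with DESeq2 (3432 of them shared), 3449 with RLE factors, 3885 with library size only, 3852 with all 9 libraries in a single fit, 3387 without a filter, 3310 with a mean of at least 50 counts and 2355 at an adjusted p of at most 0.01. Leaving out each library in turn gave from 2639 (without In/B replicate 2) to 3995 (without RA-deficient replicate 3), and 2122 genes were called in all 6 of these fits. The difference between the PL groups was less stable. Its 2383 genes became 973 at an adjusted p of at most 0.01 and 741 in the test against a fold change of 2. Leaving out each library gave from 1190 to 4484, with 1227, 1190 and 1283 without RA-sufficient replicates 1, 2 and 3 and 4484 without RA-deficient replicate 3.

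Deviations from the group means correlated across genes with r = 0.12, -0.10 and 0.11 between same-numbered libraries of In/B and RA-deficient PL. Between differently numbered libraries r ran from -0.18 to 0.14. With values of like size in both, this check cannot decide whether the numbers pair the samples. With the replicate number as a block, 3208 genes were called against In/B and 1765 between the PL groups. When each library was left out, the log2 fold changes ranged from -4.14 to 0.96 for Ldhc, -3.77 to 0.67 for Tdrd6, -1.98 to 1.24 for Rsph1 and -1.94 to 0.70 for Slc2a3. The lowest values, without RA-deficient replicate 3, were called falls, whereas with all libraries these genes were above 0 and not called, and the cause was not tested. Over all alternatives, 2521 of 2721 values of the named genes against In/B kept their direction and side of the threshold, as did 1754 of 1980 counts and medians of lists. Genes below 1 CPM are the least certain, and RA-deficient libraries held a count for fewer genes, for reasons that were not tested. At this level RA-deficient libraries differed from each other by a median of 1.35 to 1.81 log2 units, against 0.64 to 0.84 between In/B libraries.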

Other observations

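Of 24 tested genes of intraflagellar transport, which build cilia and flagella, 4 rose and 1 fell from In/B to RA-deficient PL. Among all tested genes 11.4% rose and 11.8% fell. Without replicate 3, 3 of the 24 rose and 3 fell. Ift122 was at 54.1, 52.0 and 51.0 CPM in In/B and at 150, 164 and 229 CPM in RA-deficient PL, with a log2 fold change of 1.96. Bbs7 and Ift81 rose by 2.08 and 1.47, Ift88 by 1.08 (not called without replicate 3), and Ttc8, of the same complex as Bbs7, fell by 1.44 log2 units. Of 20 tested genes of the acrosome and the spermatid nucleus, 2 were called higher, among them Catsper2 (1.55), and 0 lower. Without replicate 3, 2 were called higher and 3 lower, and the median moved from 0.39 to -0.59. Of 27 genes that assemble ribosomes, 4 fell and 0 rose, among them Wdr75 (-1.33) and Nolc1 (-1.18). None of 9 tested transporters of glucose and lactate was called by edgeR or DESeq2, 1 was higher at an unadjusted edgeR p below 0.05, and 1 was called lower without replicate 3.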
